A study of Mus musculus with 14 samples.

Results

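The unfolded protein response and the integrated stress response were examined through 36 genes of the 43472 listed in both tables of normalised counts. The genes were chosen by symbol, with earlier results of these data known. Of these genes 16 encode chaperones, folding enzymes and degradation factors of the endoplasmic reticulum (ER). Another 16 belong to the ATF4 and amino acid branch, and 4 are the ER stress sensors with Xbp1. All 36 were listed in both tables and all 36 reached the mean normalised count of 10 that was required for testing. The cells were primary fibroblasts, connective tissue cells taken from the tail tip of C57BL/6 mice, which were wounded as a monolayer by scratching and then left untreated or given autologous micrograft (AMG), a soluble extract of minced murine skin in growth medium. All groups grew in the same serum-containing medium, which was supplemented with glutamine and nonessential amino acids, and the labels name no genetic change in any group. One pair of libraries, Untreated and AMG-treated of replicate 1, was sequenced at each of 1, 5, 12 and 24 h, and replicates 2, 3 and 4 were sequenced at 5 h only, which gave 14 libraries. The labels name the control only as untreated, so the buffer of the extract and the extract itself cannot be told apart. RNA came from whole cultures, where fewer cells of a type and less RNA per cell cannot be told apart.

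Proteins that are to be secreted, such as the collagens of a fibroblast, fold in the ER with the help of chaperones and disulphide isomerases. When unfolded proteins accumulate there, the sensors IRE1 (Ern1), PERK (Eif2ak3) and ATF6 are activated. IRE1 splices the mRNA of Xbp1, and XBP1 and ATF6 then switch on chaperone and degradation genes. PERK phosphorylates the translation factor eIF2alpha, and other kinases do the same on amino acid shortage, viral RNA or haem shortage. This shared output is called the integrated stress response. It slows protein synthesis but favours translation of ATF4, a transcription factor of amino acid transport and synthesis genes, and of its partner CHOP (Ddit3). Much of this control acts on splicing, translation and protein cleavage, which read counts per gene do not measure.

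Promoter sequence was not used to choose the genes. The response elements searched in it were those already known for each branch, so matches in these genes are no independent test of the grouping. RefSeq promoter windows on GRCm38.p6, reaching from 250 bases before to 50 bases after each start, were matched by symbol for 33 of the 36 genes, with 35 windows. Manf, Slc7a5 and Atf6 had no entry. The ER stress response element (ERSE, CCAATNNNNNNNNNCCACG, both strands) is bound by ATF6 with the factor NF-Y and was present in 39 of 32851 windows of all genes, or 0.119%. It was found in 7 of the 15 matched ER genes (Hspa5, Hsp90b1, Dnajc3, Creld2, Pdia6, Calr and Canx) and in 0 of the 15 matched ATF4 genes. The related ERSE-II (ATTGGNCCACG, 0.0365% of windows) was found in Dnajb11 and Herpud1. The C/EBP-ATF response element through which ATF4 acts (CARE, TGATGNAA) was far more common by its letters, at 3.97% of windows. It was found in 4 ATF4 genes (Atf3, Trib3, Chac1 and Asns) and in 1 ER gene, Herpud1. Of the 15 matches in these genes 0 overlapped another. A match describes letters in the window and is no evidence of binding. The bases before the start are shown for Hspa5 and Creld2 as chaperone genes with an ERSE, for Chac1 as an ATF4 target with a CARE, and for Herpud1, which held both kinds. Capitals mark the fixed letters of each match.
Hspa5 (chr2:34771840-34772089, plus strand): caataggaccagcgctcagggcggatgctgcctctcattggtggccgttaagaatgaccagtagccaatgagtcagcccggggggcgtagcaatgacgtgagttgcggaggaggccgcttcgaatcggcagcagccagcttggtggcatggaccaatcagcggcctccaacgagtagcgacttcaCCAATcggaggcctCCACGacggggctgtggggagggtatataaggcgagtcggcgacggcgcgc
Creld2 (chr15:88819396-88819645, plus strand): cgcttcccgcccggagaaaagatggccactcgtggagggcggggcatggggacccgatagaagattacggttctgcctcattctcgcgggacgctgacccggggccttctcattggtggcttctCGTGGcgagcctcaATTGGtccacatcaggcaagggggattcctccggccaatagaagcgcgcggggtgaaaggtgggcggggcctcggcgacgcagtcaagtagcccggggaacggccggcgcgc
Herpud1 (chr8:94386179-94386428, plus strand): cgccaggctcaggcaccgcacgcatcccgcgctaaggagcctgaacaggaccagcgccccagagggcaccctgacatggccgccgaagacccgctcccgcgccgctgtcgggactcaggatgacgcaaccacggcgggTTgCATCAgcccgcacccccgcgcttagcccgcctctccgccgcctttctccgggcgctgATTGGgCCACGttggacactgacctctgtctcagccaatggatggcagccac
Chac1 (chr2:119350992-119351241, plus strand): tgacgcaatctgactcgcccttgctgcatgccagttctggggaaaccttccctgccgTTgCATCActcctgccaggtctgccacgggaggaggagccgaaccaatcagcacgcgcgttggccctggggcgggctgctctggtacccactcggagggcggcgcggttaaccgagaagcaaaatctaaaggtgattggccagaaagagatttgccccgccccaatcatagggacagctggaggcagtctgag
The ERSE of Hspa5 lay 46 bases before the start and that of Creld2, on the opposite strand, 107 bases before it. In Herpud1 the CARE lay 104 bases and the ERSE-II 41 bases before the start, and in Chac1 the CARE lay 185 bases before it.

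Between 12545537 and 34696529 reads per library fell in genes. All 10 fibroblast markers reached a mean of 10 in replicates 2 to 4. Col1a1 was abundant there, between 130390.0 and 278572 normalised counts, whereas Fap was scarce, between 8.80 and 37.6. The separately scaled table of replicate 1 had Col1a1 between 36187 and 150551. Of the 8 keratinocyte markers 3 reached a mean of 10 in replicates 2 to 4, with Dsp at 61.5 to 239.8 and Krt10 at 15.3 to 52.2, while the defining keratins Krt5 and Krt14 were at 0 in these 6 libraries. The sum of that list was 156 to 310.2 in untreated and 90.2 to 149 in treated libraries, and its part in the results was not tested. Of the 9 leukocyte markers 5 reached a mean of 10 in replicates 2 to 4, and their sum was 237 to 1509 in untreated and 512 to 1794 in treated libraries. The summed fibroblast markers were 447915 to 626083 in untreated and 350893 to 453679 in treated libraries. Of the 5 skeletal muscle markers 1 reached a mean of 10, Acta1 at 1735 to 7289 in replicates 2 to 4. Of the 5 adipocyte markers 1 did, Fabp4 at 259 to 2067. The balance of short and long transcripts differed between libraries. The share of 80 ribosomal protein genes, which have short transcripts, was 6.85% in the untreated library of replicate 1 at 5 h. It was 4.98% in the treated library of that replicate at 1 h and 2.22% to 3.40% in the other 12. Within replicates 2 to 4 the share was 2.22% to 2.77% in untreated and 3.10% to 3.40% in treated libraries, so it moved with treatment. Each library's trend on transcript length was therefore also removed, here called the length correction. For the 36 genes at 5 h in replicates 2 to 4 the corrected fold change is given wherever it differed by more than 1.5 times or in direction.

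The first comparison concerned replicates 2 to 4 and asked whether the extract changed these genes at 5 h. The ATF4 group lay higher with AMG, with a median log2 fold change of 0.51 and 15 of 16 genes above 0, whereas the ER group had a median of 0.15 with 11 of 16 above 0. All 13096 genes tested had a median of -0.018. Within each replicate the order was the same: the ATF4 median was 0.72, 0.27 and 0.52 in replicates 2, 3 and 4, and the ER median was 0.11, 0.058 and 0.18. The medians are descriptions of gene lists, and the difference between the lists was not tested. None of the 36 genes passed an adjusted p of 0.05 in limma without a block, where 1.24% of all genes passed. At an unadjusted p under 0.05 there were 5 ATF4, 4 ER and 2 sensor genes, where 23.1% of all genes lay under it. Of the 36 genes edgeR called 0, where it called 1.03% of all genes, and DESeq2 called 4, where it called 10.9%. Without treated replicate 3 limma called 7 ATF4 and 2 ER genes, where it called 16.8% of all genes.

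The treated and untreated libraries of one replicate number deviated together, and with the replicate number as a block 17 of the 36 genes passed. In that fit 9 ATF4 genes passed, all 9 higher, which is 56.2% of the list, against 17.9% of all genes that passed as higher. The ER group had 4 genes higher and 1 lower, or 25% and 6.25%, against 17.9% and 19.3% of all genes. For the ER group the share of calls, 5 of 16, was thus no larger than the 37.2% of all genes called in either direction. Of the sensor group 2 were higher and 1 lower. The block fit of edgeR called 10 ATF4, 5 ER and 3 sensor genes, where it called 37% of all genes. With the length correction 7 ATF4, 4 ER and 2 sensor genes passed in the limma block fit, where 34.1% of the 12939 genes with a known length did, and the correction lowered the ATF4 median to 0.28 and the ER median to 0.072. The calls also rested on single replicates: leaving out replicate 2 left 5 ATF4 and 2 ER genes, where 10.8% of all genes passed. Leaving out replicate 3 gave 13 and 7, where 51.9% of all genes passed, and leaving out replicate 4 gave 8 and 3, where 20.4% did. Those called in the block fit and without each replicate in turn were Atf4, Trib3, Chac1, Ppp1r15a, Slc3a2, Herpud1 and Creld2. The share of all genes that passed in every one of these fits was not counted. With replicate 1 added as a further pair only Chac1 passed (adjusted p = 0.0397 with limma), where 3.93% of all genes did, and the ER median was then -0.00607.

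**Figure D1:**
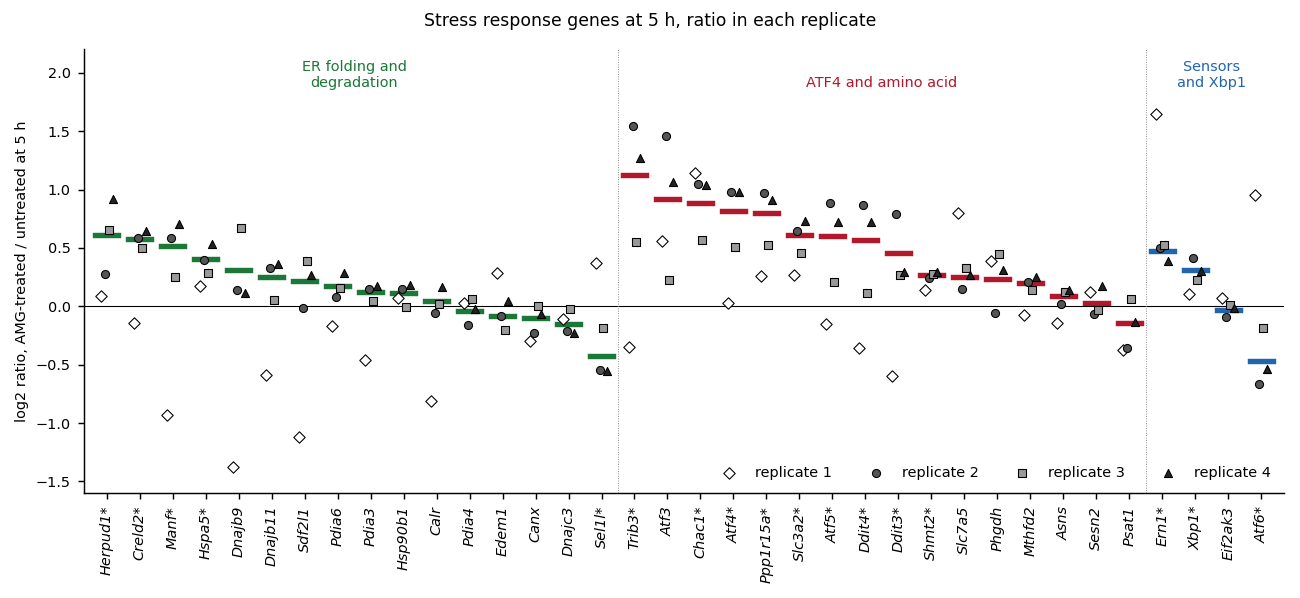
The log2 ratio of AMG-treated to untreated normalised counts at 5 h is plotted for each gene and replicate, with a coloured bar at the fitted log2 fold change of replicates 2 to 4 and an asterisk where the adjusted p with the replicate block was under 0.05. The ATF4 genes (red) sit mostly above 0 with a median of 0.51, and the ER genes (green) lie around their median of 0.15. The open diamonds of replicate 1, drawn without the length correction, lie below all other replicates in 11 of 16 ER genes and 11 of 16 ATF4 genes. The share over all genes was not counted.

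Among the transcription factors of the branch, Atf4 itself (chromosome 15, 80255184 to 80257541, mm10) had 4523, 3924 and 3774 normalised counts in untreated replicates 2, 3 and 4 and 8889, 5580.5 and 7417 in the treated ones. Every treated library exceeded every untreated one, as was the case for 15.1% of all genes, and for 28.7% the groups were separate in either direction. On the log2 scale Atf4 was 0.82 higher (SE 0.19, n = 3), which limma gave an adjusted p of 0.0874 alone and of 0.000887 once blocked. Here and below each SE is that of the fit without the block. Atf5 (chromosome 7, 44812256 to 44816658), a related factor that is also regulated by translation, had 2469, 3031 and 2382 untreated and 4552, 3499 and 3928 treated counts, again without overlap. The difference of 0.60 (SE 0.15) had adjusted p-values of 0.102 unblocked and 0.00629 blocked in limma. The gene overlaps Nup62 and Il4i1 on the other strand, and the strand setting of the counting is not given in the sources used here, so its reads are uncertain. Ddit3 (chromosome 10, 127290774 to 127296288), which encodes CHOP, a factor linked to cell death in prolonged stress, had 554, 394 and 455 untreated and 962, 474 and 559 treated counts. The groups overlapped, since treated replicate 3 lay below untreated replicate 2, but each treated library exceeded the untreated one of its number. Its log2 fold change of 0.45 (SE 0.28) passed with the block in limma (adjusted p = 0.0270) but not after the length correction, where it was 0.22 (adjusted p = 0.194). Ddit3 overlaps Mars on the other strand, so its reads are uncertain too. Among the other genes called with the block, Ppp1r15a, Shmt2, Herpud1 and Manf also overlap genes on the other strand, and the same limit applies. Atf3, an inducible repressor that also answers to other stresses, was scarce, with 10 to 68 reads per library in replicates 2 to 4, and its log2 fold change of 0.91 (SE 0.67) did not pass in either limma fit (adjusted p = 0.0585 with the block) but passed in edgeR with the block (adjusted p = 0.0342).

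The feedback and effector genes of the branch gave some of the largest differences. Trib3 (chromosome 2, 152337422 to 152344032), a pseudokinase that restrains ATF4 and CHOP, had 187, 114 and 222 untreated and 547, 167 and 537 treated counts. The treated libraries of replicates 2 and 4 were far above all untreated ones and that of replicate 3 was within their range. The fitted difference, 1.12 with an SE of 0.50, was the largest among the 36 genes, and its adjusted p was 0.237 unblocked and 0.00288 blocked. Chac1 (chromosome 2, 119351229 to 119354381), which breaks down glutathione, showed the same arrangement, with 288, 155 and 261 untreated and 597, 229.5 and 535 treated counts. Its difference was 0.88 (SE 0.41), and limma's adjusted p fell from 0.253 to 0.00241 when the block was added. Chac1 was higher with AMG in all 4 replicates at 5 h, including replicate 1, as were 15.7% of all genes. Ppp1r15a (chromosome 7, 45522916 to 45526268) encodes GADD34, the phosphatase subunit that removes phosphate from eIF2alpha. It had 905, 582 and 683 untreated and 1774, 836 and 1283 treated counts, a difference of 0.80 (SE 0.30, adjusted p = 0.178 with limma and 0.00123 with the block). Treated replicate 3 was again the lowest of the treated libraries and lay below untreated replicate 2. Ddit4 (chromosome 10, 59949669 to 59951834), an inhibitor of the growth kinase mTORC1, had 727, 657 and 660.4 untreated and 1324, 711 and 1091 treated counts. Replicate 3 hardly differed, with a log2 ratio of 0.11 against 0.86 and 0.72 in replicates 2 and 4, and the fitted difference of 0.57 (SE 0.23) passed with the block only (adjusted p = 0.0145 with limma). The length correction lowered it to 0.34. Sesn2, another mTORC1 inhibitor, was at 0.024, or -0.028 with the length correction, and did not pass in either fit.

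The amino acid genes did not move as one. Slc3a2 (chromosome 19, 8706882 to 8723369), the heavy chain shared by several amino acid exchangers, had 2689, 3048 and 2501 untreated and 4196, 4193 and 4146 treated counts. The 3 treated libraries differed by little from each other and lay above all untreated ones, which gave a log2 fold change of 0.61 (SE 0.12). Without the block it had the lowest adjusted p of the 36 genes, at 0.0628 in limma, and with the block the value was 0.00145. Slc7a5, the light chain LAT1 that pairs with it to import large neutral amino acids, was higher by 0.25 without overlap between groups but did not pass (adjusted p = 0.0549 with the block in limma). Shmt2, the mitochondrial enzyme that splits serine into glycine and a one-carbon unit, had 2420.0, 2456 and 2836 untreated and 2856, 2970.2 and 3486 treated counts. Its ratio was alike in replicates 2, 3 and 4, at 0.24, 0.27 and 0.30, and it passed with the block (adjusted p = 0.0329) but not after the length correction (0.0863). The log2 fold changes of the serine synthesis enzymes Phgdh and Psat1 were 0.23 and -0.15, that of the next mitochondrial folate enzyme, Mthfd2, was 0.20, and that of asparagine synthetase, Asns, was 0.091. The length correction put Phgdh at 0.10 and turned Asns to -0.021. None of these 4 passed in either limma fit. Asns, a standard ATF4 target with a CARE in its window, had 3431, 2570.4 and 3389 untreated and 3473, 2791 and 3725 treated counts, and the groups overlapped, with treated replicate 3 inside the untreated range.

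**Figure D2:**
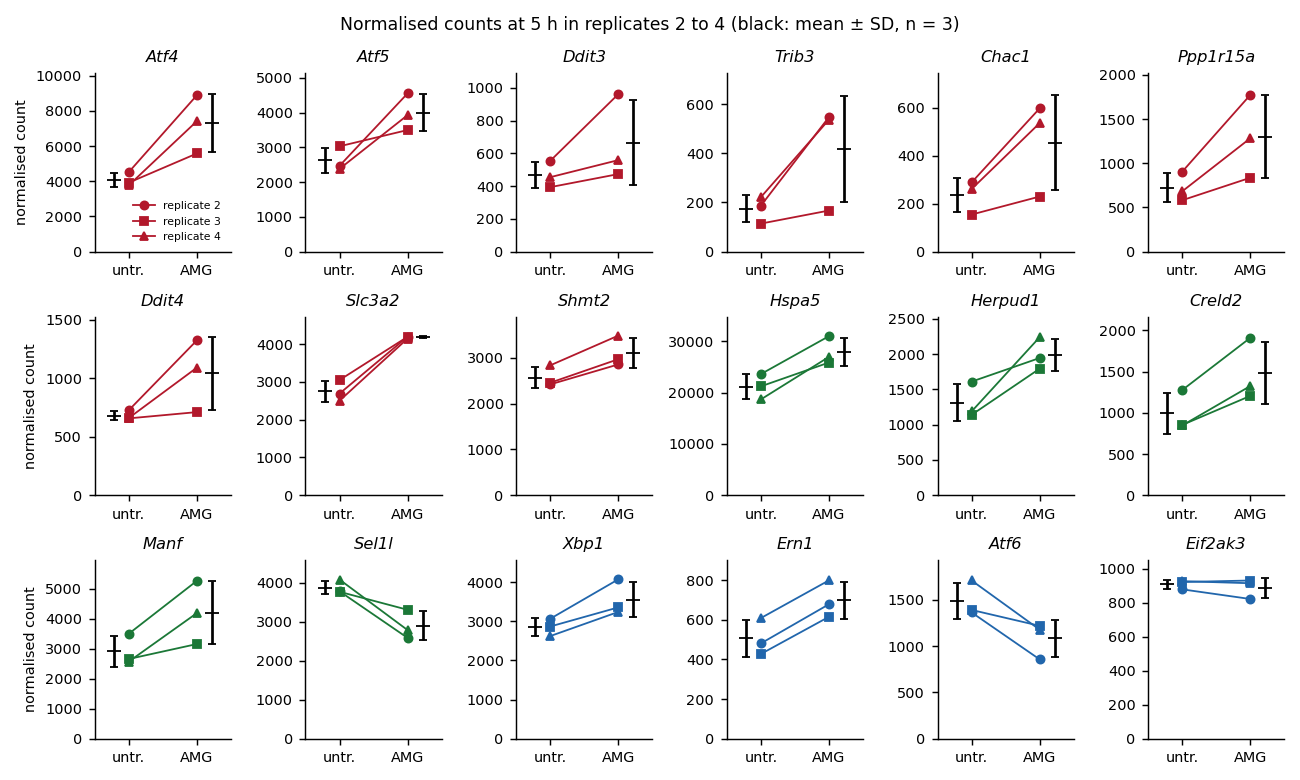
Normalised counts at 5 h are plotted for 18 genes, with a line joining the untreated and AMG-treated library of each replicate number and black bars for mean ± SD of 3 libraries. For Trib3, Chac1, Ppp1r15a and Ddit4 the line of replicate 3 (squares) is the flattest, whereas for Slc3a2 the 3 treated libraries meet at 4196, 4193 and 4146.

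In the ER group the abundant chaperones and isomerases differed little. Calr, the calcium-binding lectin chaperone, had the highest level per length of all members, at 11609.8 normalised counts per kilobase of exon in untreated cells, and a log2 fold change of 0.042, or -0.060 with the length correction. The chaperone Hsp90b1 (GRP94), the disulphide isomerases Pdia3, Pdia4 and Pdia6, and the lectin chaperone Canx were at 0.11, 0.12, -0.041, 0.17 and -0.098, and none passed in either limma fit. The length correction put Pdia3 at 0.040, Pdia4 at -0.18 and Canx at -0.052. Hspa5 (chromosome 2, 34771970 to 34777547), the master chaperone BiP, had 23592, 21204 and 18659.5 untreated and 30979, 25846 and 26944 treated counts. All treated libraries exceeded all untreated ones, and its log2 fold change of 0.40 (SE 0.16) passed with the block (adjusted p = 0.0125 with limma). It was no longer called without replicate 2 or without replicate 4. Creld2 (chromosome 15, 88819646 to 88826683), a secreted ER stress protein, had 1277, 854 and 847 untreated and 1911, 1206 and 1326 treated counts. Treated replicate 3 lay below untreated replicate 2, yet the ratio was alike within the replicates, at 0.58, 0.50 and 0.65, and the difference of 0.58 passed with the block (adjusted p = 0.00221). The length correction lowered it to 0.28. Manf (chromosome 9, 106838312 to 106891979), a secreted cofactor of BiP, had 3496, 2655 and 2569.8 untreated and 5257, 3153 and 4182 treated counts, a difference of 0.51 (SE 0.22, adjusted p = 0.219 and 0.00578 with the block in limma). Its annotated span also covers Rbm15b, at least in part, on the same strand.

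Genes of ER-associated degradation went in opposite directions. Herpud1 (chromosome 8, 94386438 to 94395377), which organises the degradation complex, had 1611, 1140.4 and 1188 untreated and 1947, 1795 and 2242 treated counts. The treated libraries lay above all untreated ones, and its difference of 0.61 (SE 0.17) was the largest of the ER group, with adjusted p-values of 0.116 unblocked and 0.00540 blocked. Sel1l (chromosome 12, 91806043 to 91849157), the scaffold of the same complex, had 3787, 3775 and 4088 untreated and 2590.4, 3312 and 2791 treated counts. Here all treated libraries were below all untreated ones, as for 13.6% of all genes, and the difference of -0.43 (SE 0.13) passed with the block (adjusted p = 0.0101). With the length correction it was -0.23, with an adjusted p of 0.0501 in the block fit. In replicate 1 at 5 h the log2 ratio of Sel1l was 0.37, or -0.020 with the length correction. Edem1, a lectin of the same route, was at -0.079, or 0.039 with the length correction. The BiP cochaperones Dnajb9, Dnajb11 and Dnajc3 and the ER protein Sdf2l1 were at 0.31, 0.25, -0.16 and 0.21, and none passed in either limma fit. After the length correction Dnajb9 was at 0.18, Dnajc3 at -0.079 and Sdf2l1, with its direction turned, at -0.14.

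The sensors themselves were also split. Ern1 (chromosome 11, 106394650 to 106487852), which encodes IRE1, had 481, 427 and 608 untreated and 678, 615 and 799 treated counts, without overlap. It was 0.47 higher (SE 0.18, adjusted p = 0.190 with limma and 0.00949 with the block). Its substrate Xbp1 (chromosome 11, 5520659 to 5525893) had 3065, 2867 and 2622 untreated and 4071, 3356 and 3239 treated counts, a difference of 0.31 that passed with the block (adjusted p = 0.0207). The counts per gene do not separate spliced from unspliced Xbp1. Atf6 (chromosome 1, 170704674 to 170867771) had 1363, 1389.6 and 1708 untreated and 856, 1218 and 1177 treated counts, and all treated libraries were below all untreated ones. Its difference of -0.47 (SE 0.18) passed with the block (adjusted p = 0.0117), but not after the length correction, where it was -0.25 (adjusted p = 0.0669). In replicate 1 at 5 h Atf6 was instead higher with AMG, and with that pair added the block fit gave -0.11. Eif2ak3 (PERK) had 880.0, 923 and 928 untreated and 823, 932 and 916 treated counts, a difference of -0.034, or 0.074 with the length correction, that did not pass (adjusted p = 0.813 with the block). In the block fit, leaving out replicate 2 ended the calls of Ern1, Xbp1 and Atf6.

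Further genes of the pathway, listed by function, were counted in the same fits. Of 31 other ER folding and degradation genes tested, 0 passed in limma without the block, with 3 at an unadjusted p under 0.05 against the 23.1% of all genes, and 4 were higher and 4 lower with it, or 12.9% in each direction against 17.9% and 19.3% of all genes. Their median was 0.045. The largest differences were those of Sec61b (0.60), Selk (0.53) and Ero1l (0.45) upwards and of Edem3 (-0.63), Sec24d (-0.47) and Hspa13 (-0.45) downwards. Of 36 other ATF4 and eIF2alpha genes, among them aminoacyl-tRNA synthetases, transporters and C/EBP partners, 1 passed without the block. In that fit 8 had an unadjusted p under 0.05, against the 23.1% of all genes. With the block 10 were higher and 3 lower, or 27.8% and 8.33%. Their median was 0.19. The gene that passed without the block was Slc7a11, the cystine importer that is also a target of the antioxidant factor NRF2. It went from 41.6 ± 6.89 to 1871 ± 531 normalised counts (mean ± SD, n = 3), higher by 5.43 on the log2 scale with an SE of 0.26 (adjusted p = 0.00210 in limma). Cebpb and Cdkn1a followed with 2.27 and 0.88, and neither passed without the block (adjusted p = 0.0740 and 0.0837). The largest differences downwards were those of Aldh1l2 (-0.57), Slc38a2 (-0.56) and Stc2 (-0.47). Of 13 other sensors and regulators, 0 passed without the block, with 4 at an unadjusted p under 0.05. With the block 2 were higher and 3 lower, or 15.4% and 23.1% against 17.9% and 19.3% of all genes. Crebrf, a regulator that promotes turnover of the ER stress factor CREB3, had the largest difference downwards, at -1.43 (SE 0.25, adjusted p = 0.0524 with limma and 0.000423 with the block). Eif2ak2 and Mbtps2 followed at -0.48 and -0.40. Traf2, Ppp1r15b and Creb3l2 had the largest differences upwards, at 0.74, 0.42 and 0.19.

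The second comparison followed replicate 1 over 24 h. With 1 library per group and time these ratios have no replicate check, and no p-value is given. At 1 h the ATF4 group had a median log2 ratio of 0.39, with 5 of 16 genes more than 1.5-fold higher, and the ER group one of 0.17, with 3 higher and 1 lower, where 22.6% of all genes were higher and 25.1% lower by that much. The 1 h ratio compares the short-transcript-rich AMG-treated library with its control, and the length correction lowered the ATF4 median to 0.098. Atf3 stood at 362 treated against 169 untreated counts at 1 h, and between 19.7 and 33.4 in all 6 later libraries of that replicate. Ddit4 was at 3933 against 1579, a log2 ratio of 1.32 or 0.72 with the length correction. Dnajb9, a cochaperone and classical XBP1 target, had a ratio of 1.45 at 1 h and of -1.38 at 5 h, and Manf had 1.06 and -0.93. With the length correction these were 1.17 and -1.02, and 1.00 and -0.81. These ratios use the 2 libraries with the highest ribosomal protein shares, AMG-treated at 1 h and Untreated at 5 h, whose part in the result was not tested further.

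At 5 h the deposited values of replicate 1 did not follow the other replicates. The ATF4 median was 0.074 and the ER median -0.15, with 4 ER genes more than 1.5-fold lower and 0 higher, where 25.4% and 25.6% of all genes were lower and higher. With the length correction the ATF4 median became 0.36, and the ER median stayed at -0.17. The corrected medians of replicates 2 to 4 were 0.28 for the ATF4 group and 0.072 for the ER group. Atf4 was at 8779 untreated and 8947 treated counts, a log2 ratio of 0.027, or 0.44 with the length correction. Trib3 and Ddit3 were lower with AMG, at -0.35 and -0.59, and turned to 0.14 and 0.024 with the length correction. Chac1 (log2 ratio 1.14), Slc7a5 (0.80) and Ern1 (1.64) were higher. Over all 4 pairs at 5 h, 7 ATF4 genes were higher in every pair, namely Atf3, Atf4, Chac1, Ppp1r15a, Shmt2, Slc7a5 and Slc3a2. Such a pattern held for 15.7% of all genes. In the ER group Hspa5 and Herpud1 were higher in every pair and Dnajc3 and Canx lower, and among the sensors Ern1 and Xbp1 were higher. Of all genes 15.9% were lower in every pair. The ER group, with 2 of 16 in each direction, thus held no larger share than all genes.

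At 12 and 24 h most members, 23 and 27 of 36, lay below the untreated level, where 6890 and 6532 of all 13498 genes did. The ATF4 median was -0.29 and -0.35, and 6 and then 5 of 16 genes were more than 1.5-fold lower, where 13.6% and 15.3% of all genes were. In the ER group 1 and 2 genes were lower by that much and 15 of 16 lay below 0 at 24 h, with a median of -0.17. All genes with a mean of 10 had medians of -0.0099 and 0.017. For several genes the untreated level differed more between times than the treated level. Trib3 was at 61.5, 62.3, 479 and 201 normalised counts in untreated cells at 1, 5, 12 and 24 h and at 62.6, 48.7, 142 and 70.2 in treated cells. Both cultures were highest at 12 h, the untreated one by more, and the ratios at 12 and 24 h were -1.75 and -1.50. Chac1 was at 58.0, 42.6, 323 and 178 in untreated and at a nearly level 104, 95.2, 100.1 and 113 in treated cells. Herpud1 had 498, 661, 1428 and 1200.0 untreated and 525, 703, 816 and 642 treated counts. In these 3 genes the untreated level at 12 h was above that at 1 h by 2.94, 2.46 and 1.52 on the log2 scale. Ddit3 had 328, 661, 656 and 557 untreated and 475, 437, 335 and 431 treated counts, and Sesn2 had ratios of -0.72 and -0.33 at the late times.

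In Mthfd2 and Asns the treated level differed more between times than the untreated level. Mthfd2 had 1107, 956, 1299 and 855 untreated and 1315, 909.8, 682 and 338 treated counts, with the treated level lower at each later time. Its log2 ratio was -0.93 at 12 h and -1.33 at 24 h, and the length correction left it at -0.87 and -1.37. Asns showed the same direction, with 2299, 1859, 1979.5 and 1639.6 untreated and 2203, 1686, 1432 and 1035 treated counts and a ratio of -0.66 at 24 h. Slc7a5, at 1888, 1034, 1074 and 958 untreated and 1297, 1797, 629 and 609 treated counts, was higher with AMG at 5 h only and lower at 1, 12 and 24 h. Phgdh, the enzyme that opens serine synthesis, went the other way. It had 4401, 7130.1, 4539 and 1644 untreated and 6211, 9329.8, 8869 and 5575 treated counts, with the untreated library at 24 h the lowest of the 8. Its ratios were 0.50, 0.39, 0.97 and 1.76, positive at all 4 times, whereas Psat1, an enzyme of the same route, was at -0.11 and 0.096 at 12 and 24 h. At 5 h in replicates 2 to 4 the Phgdh ratio was -0.061, 0.44 and 0.31. Ppp1r15a and Atf3 were also higher with AMG at all 4 times, with lowest ratios of 0.26 and 0.33.

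**Figure D3:**
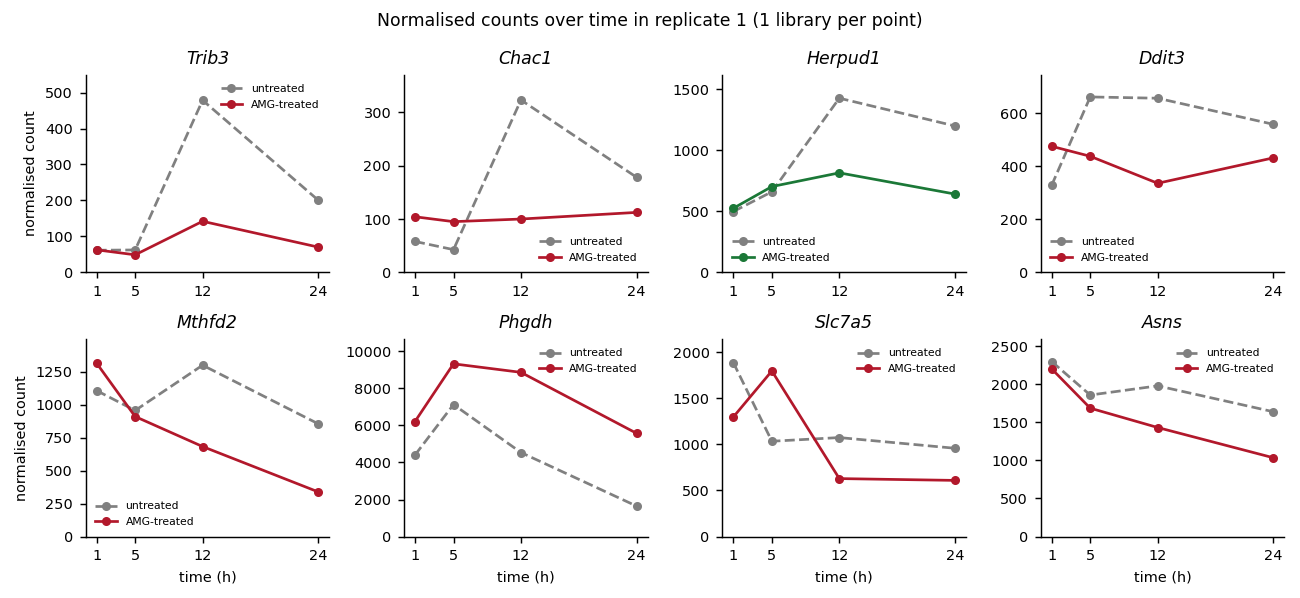
Normalised counts in replicate 1 are plotted against time for 8 genes, with untreated cells as grey dashed lines and AMG-treated cells as coloured lines, 1 library per point. The untreated lines of Trib3, Chac1 and Herpud1 peak at 12 h, at 479, 323 and 1428 counts, well above the treated lines, while Phgdh is higher in treated cells at every time.

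Among the sensors, Ern1 had ratios of -0.95, 1.64, 0.64 and 0.13. Its counts were 782, 239, 454 and 495 in untreated and 403, 749.6, 710.0 and 542 in treated cells, and the untreated value at 5 h, from the library with the highest ribosomal protein share, was the lowest of the 8. With the length correction the 5 h ratio was 1.28. Eif2ak3 was lower with AMG at 1 h, at 341 against 794 counts, with a ratio of -1.22 or -0.97 with the length correction, and between -0.29 and 0.18 afterwards. Atf6 was at 593 untreated and 1149 treated counts at 5 h, a ratio of 0.95 or 0.53 with the length correction. Xbp1 and Hspa5 lay below the untreated level at 24 h, at -0.50 and -0.35, and Sel1l at -0.65.

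**Figure D4:**
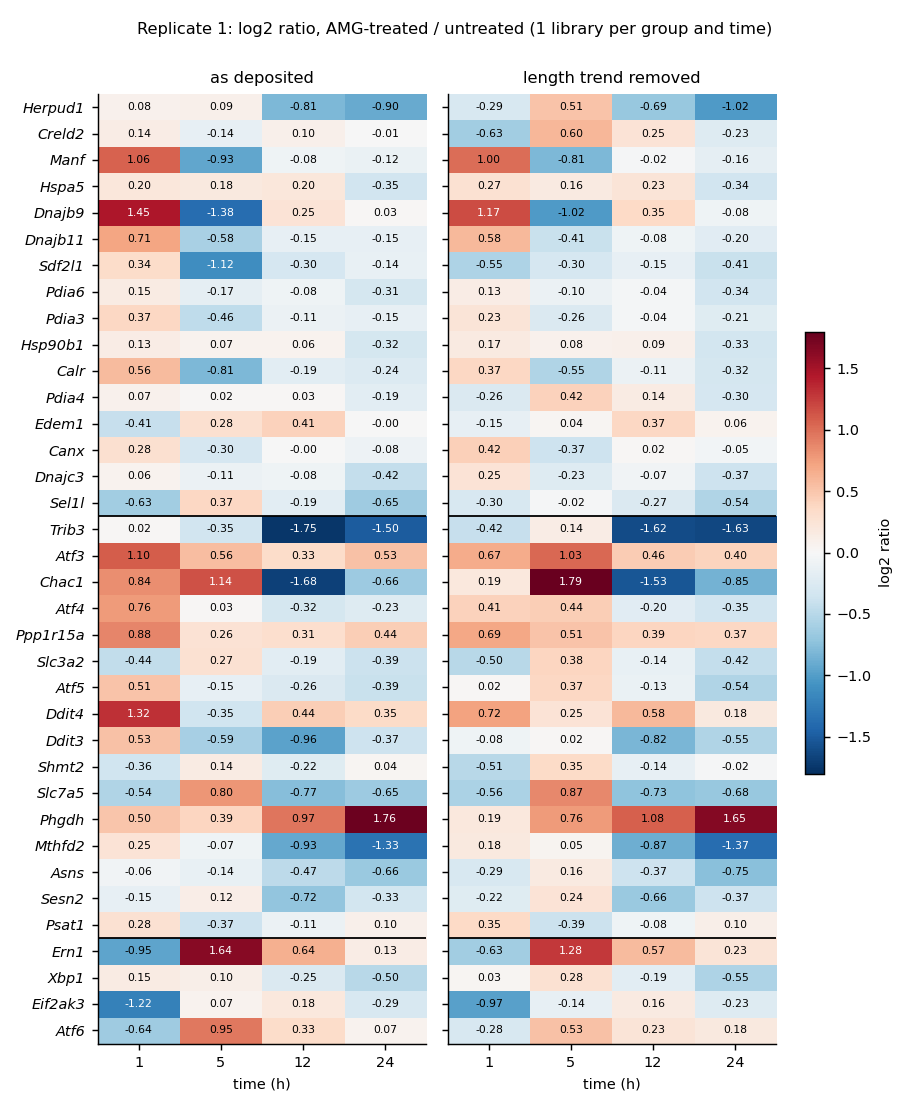
The log2 ratio of AMG-treated to untreated cells in replicate 1 is shown as a colour and a number for each gene (rows, ER genes above, ATF4 genes in the middle, sensors below) and time, on the left from the deposited values and on the right after the length correction. The negative ratios of Trib3, Chac1, Herpud1 and Mthfd2 at 12 and 24 h and the positive ones of Phgdh appear on both sides, while the 1 and 5 h columns differ most between the sides.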

How the data were processed

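Primary mouse tail-tip fibroblasts were profiled by stranded mRNA sequencing in 14 libraries. Per the labels and the study's methods, the authors aligned single-end reads to mm10 with TopHat2 2.0.13, kept unique alignments, counted them per gene with HTSeq 0.5.3p3 and scaled them with DESeq. Annotation release and strand setting are not given in the sources used here. The deposited values are a signal, namely reads divided by 1 size factor per library, in a table for replicate 1 and a separately scaled table for replicates 2 to 4, so levels were not compared across them. The values were whole reads after multiplication by the size factor (tolerance 0.1, 100% of values), with 12545537 to 34696529 reads per library. Intervals from counts would cover counting error only, and 3 reads, the floor, correspond to 1.62 to 5.22 normalised counts.

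Replicates 2 to 4 at 5 h were compared with limma 3.58.1 (R 4.3.3) on log2(normalised count + 1) over 13096 genes with a mean of at least 10, with Benjamini-Hochberg adjustment over all of them. Fold changes are on that log2 scale, which understates low genes. A second fit added the replicate number as a block, and the SEs given are those of the first fit. Deviations from the group means correlated at 0.65, 0.76 and 0.70 within a number and at -0.59 to 0.12 between numbers, so the numbers pair the samples, and this comes from the data, not from a label. The labels call these biological replicates but do not say whether cultures came from separate mice. Replicate 1 has 1 library per group and time, and ratios past 1.5-fold were counted over 13498 genes. The length correction subtracted, from each library, a lowess fit (span 0.3) of its log2 deviations from the mean of all libraries on exon length from GENCODE M21. The reads recovered from the values were also fitted with edgeR 4.0.16 and with DESeq2 1.42.0. Further alternatives were other pseudocounts, filters and scaling, and fits without single libraries. The scripts were tested on simulated data. The 36 members and the further pathway lists were chosen with earlier results of these data known. Members called in either limma fit, or past a log2 ratio of 1 at 2 or more times in replicate 1, are given by sample, and the pathway lists by counts with the 3 largest differences in each direction. Columns without a sample numbered 0.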

Additional observations from a re-analysis of the deposited data

Results flagged for a closer look

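Over the 4 pairs at 5 h, the log2 ratio of Ern1 in replicate 1, 1.64, stood apart from the other replicates. Its gap to the next pair was 0.895 of the whole range, above Dixon's critical value for 4 samples. That pair uses the untreated library with the highest ribosomal protein share, whose part in the value was not tested. All 36 genes were searched in this way, and chance flags about 1 in 20 such groups.

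In replicate 1, 4 genes had a ratio past 1.5-fold at another time that was opposite to all 4 pairs at 5 h. Smaller opposite ratios, such as -0.44 for Slc3a2 at 1 h and -0.50 for Xbp1 at 24 h, are not listed. None of these differences was tested, and the share over all genes was not counted. Herpud1, between 0.090 and 0.92 at 5 h, was at -0.81 at 12 h and -0.90 at 24 h. Chac1, between 0.57 and 1.14 at 5 h, was at -1.68 and -0.66 at these times. Slc7a5, between 0.15 and 0.80 at 5 h, was at -0.77 and -0.65. Ern1, between 0.39 and 1.64 at 5 h, was at -0.95 at 1 h, where the treated library was rich in short transcripts.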

How the results depend on the processing

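The number of genes called at 5 h depended on the fit, and 12 of the 36 genes had the opposite sign in at least 1 setting, 0 of them among the 17 called with the replicate block. Replicate 1 alone was not among these settings. Its ratio at 5 h had the opposite sign for Creld2, Manf, Sel1l, Atf5, Ddit3, Ddit4, Trib3 and Atf6, which belong to these 17. With the length correction only Manf, at -0.81, and Atf6, at 0.53, stayed opposite. Creld2, Atf5 and Ddit4 were then at 0.60, 0.37 and 0.25, and Trib3, Ddit3 and Sel1l at 0.14, 0.024 and -0.020. Without a block limma called 0 ER, 0 ATF4 and 0 sensor genes. With the replicate block it called 5, 9 and 3, edgeR with the block 5, 10 and 3, and the length correction with the replicate block 4, 7 and 2. DESeq2 without a block called 1 ER and 3 ATF4 genes, and the replicate block over all 4 replicates called 1 ATF4 gene. Leaving out each pair in turn from the block fit, which was added after seeing the data, gave 2, 7 and 3 ER, 5, 13 and 8 ATF4 and 0, 3 and 2 sensor genes without replicates 2, 3 and 4. Leaving out single libraries without a block gave 0 to 2, 0 to 7 and 0, with the calls arising without treated replicate 3. The ER median was 0.072 with the length correction, with or without the block, -0.00607 over all 4 replicates with the block, and 0.023 to 0.29 without single libraries. The ATF4 median was 0.28 with the length correction. The sensor median was 0.0918 with upper quartile rescaling and 0.12 to 0.16 without single libraries. In replicate 1 the length correction gave an ER median of -0.31 at 24 h, ATF4 medians of 0.10 at 1 h and 0.36 at 5 h, and sensor medians of -0.45, 0.40, 0.19 and -0.027 at 1, 5, 12 and 24 h. Upper quartile rescaling gave sensor medians of -0.85, 0.50, 0.20 and -0.17. The causes were not tested. Other pseudocounts, filters and edgeR without a block left all calls at 0. Atf3 had the fewest reads of the 36 genes, 10 to 68 per library, and was called by edgeR but not by limma with the block.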
